A study of Mus musculus with 4 samples.

Results

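Cluster 49 of the posterior hindbrain consisted of 156 neuronal nuclei that the depositors' annotation named after *Ccbe1* and *Tspan18*. Its members were all nuclei that passed the authors' quality filter and carried this cluster label, 156 of 12539 neurons and of 39461 kept nuclei in all, and the remaining 12383 neurons served for comparison. Control replicates 1 and 2 gave 9 and 18 of these nuclei, and AgRP-Gq;POMC-Gi replicates 1 and 2 gave 72 and 57. Single-nucleus RNA sequencing with the 10x Genomics 3′ kit was done on mice aged 12 to 20 weeks that had received clozapine N-oxide (CNO), the ligand of the designer receptors, at 3 mg per kg 1 h before. AgRP-Gq;POMC-Gi mice carried AgRP-IRES-Cre+/- together with hM3DGq fl/-, and POMC-Dre+/- together with hM4DGi fl/-, so that Cre put the excitatory hM3DGq receptor into AgRP neurons and Dre put the inhibitory hM4DGi receptor into POMC neurons. Control mice, which the labels call WT, carried hM3DGq fl/- and hM4DGi fl/- without either recombinase according to the Methods. AgRP neurons are known from the arcuate nucleus of the hypothalamus, and POMC neurons from the arcuate nucleus and the nucleus of the solitary tract, which lies in the hindbrain. *Pomc*, named after its value was seen, had a UMI in 4 nuclei of cluster 49 (2.56%) and in 2.88% of other neurons. The paper used male and female mice here. The Methods state that samples of a condition were pooled, with 2 mice per group, but not which mice went into which library. Every test between the groups on all 4 libraries thus measures only the spread between 2 libraries per group.

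The posterior hindbrain holds relay and local-circuit neurons of the vagal, somatosensory, respiratory and motor systems, and a large part of its local circuitry uses GABA, glycine or both. GABA is made by the glutamate decarboxylases *Gad1* and *Gad2*, glycine is taken back up by *Slc6a5*, and both are loaded into vesicles by *Slc32a1*. Inhibitory neurons of the dorsal hindbrain and spinal cord are known to pass through a *Pax2* stage, and Hox genes mark their position along the head-to-tail axis. *Ccbe1* encodes a secreted protein with collagen and calcium-binding EGF domains that is required for lymphatic growth through processing of VEGF-C. *Tspan18* encodes a tetraspanin, a protein with several membrane-spanning segments, known in endothelium for its interaction with the store-operated calcium channel Orai1.

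Levels are given as UMIs of a gene summed over the nuclei of a library, scaled to 1e6 summed UMIs (CPM), and 4 values in a row always stand for control replicates 1 and 2 and then AgRP-Gq;POMC-Gi replicates 1 and 2. These are 3′ UMI counts that were not divided by transcript length, so a gene was set against itself in other neurons and not against other genes. The summed UMIs of cluster 49 were 63672, 125826, 419662 and 374725, so that a single UMI was worth 15.7, 7.95, 2.38 and 2.67 CPM. Its nuclei had a median of 5878 UMIs and 2650 genes against 8743 UMIs and 3580 genes in other neurons. Control replicate 1 stood apart, with 7 of its 9 nuclei positive for the neuronal splicing factor *Rbfox3* against 2 of 18, 19 of 72 and 15 of 57 in the other libraries, and with no *Fbxl7* UMI in 4 of 9. The Xist transcript of the inactive X chromosome was at 1288, 1152, 1961 and 0 CPM in cluster 49, so *Xist* was not found in AgRP-Gq;POMC-Gi replicate 2. The labels give no sex per library, and by this transcript the AgRP-Gq;POMC-Gi libraries differed in the sex of their mice. Of the non-neuronal marker lists, the sum of 5 oligodendrocyte genes was higher in the control libraries than in the AgRP-Gq;POMC-Gi libraries, at 769.6, 525, 172 and 203 CPM, and it was 273, 228, 133 and 169.6 CPM in other neurons of the same libraries. The choroid plexus gene *Ttr* ran at 62.8, 1264, 14.3 and 891 CPM while the other gene of that list, *Folr1*, was at 0, and in other neurons the sum of both was 1.38, 1005, 7.65 and 579 CPM. Ependymal *Foxj1* and *Ccdc153* were at 0, and the sum of 6 astrocyte genes was 126, 143, 71.5 and 66.7 CPM. The part of these markers in the results below was not tested beyond the values given with them.

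Both genes in the name of the cluster were found in most of its nuclei. *Ccbe1* (ENSMUSG00000046318, GRCm38 chr18:66045302-66302741, minus strand) had 267, 334, 462 and 291 CPM, a mean of 338 ± 87.0 (SD, n = 4), against 19.7 CPM in other neurons. *Tspan18* (ENSMUSG00000027217, chr2:93201760-93334505, minus strand) had 188, 374, 276 and 307 CPM, a mean of 286 ± 76.8, against 15.0 CPM in other neurons. For either gene every library of cluster 49 lay above every library of other neurons, which ranged from 15.0 to 23.9 CPM for *Ccbe1* and from 13.2 to 16.8 CPM for *Tspan18*. A *Ccbe1* UMI was present in 115 of 156 nuclei (73.7%, exact 95% interval 66.1 to 80.4) against 9.93% of other neurons and 0.113% of oligodendrocytes. *Tspan18* was present in 113 nuclei (72.4%, 64.7 to 79.3) against 10.3% of other neurons and 0.161% of oligodendrocytes. Of the 156 nuclei, 89 (57.1%) held both genes and 17 (10.9%) held neither. *Tspan18* had its highest level of the 134 neuronal clusters here, whereas *Ccbe1* was higher in cluster 92, at 399 CPM. These genes took part in the clustering, so their difference from other neurons is a description of the cluster and was not tested.

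The leading genes were the 20 with the largest log2 ratio of level in cluster 49 to level in other neurons (1 CPM added to both) among genes detected in 30% or more of its nuclei, of which 18 are reported here. Receptors and other membrane proteins are given first. *Insrr*, an alkali-sensing relative of the insulin receptor (ENSMUSG00000005640, chr3:87796951-87816101, plus strand), had 0, 87.4, 92.9 and 120.1 CPM against 2.35 CPM in other neurons, a log2 ratio of 4.51. It was in 54 nuclei (34.6%) and in 1.62% of other neurons, and it was not found in the 9 nuclei of control replicate 1. *Cacng5*, an auxiliary subunit of AMPA receptors, was the most even of the leading genes over the libraries, at 78.5, 79.5, 92.9 and 66.7 CPM against 7.32. *Igsf11*, an adhesion protein of the immunoglobulin family, averaged 102 against 9.89 CPM, and *Tmem132d*, a single-pass membrane protein, had 769.6, 1319, 1258 and 1057 CPM against 122. Both of these are also genes of the oligodendrocyte lineage, with a UMI in 59.1% and 49.4% of oligodendrocytes.

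**Figure D1:**
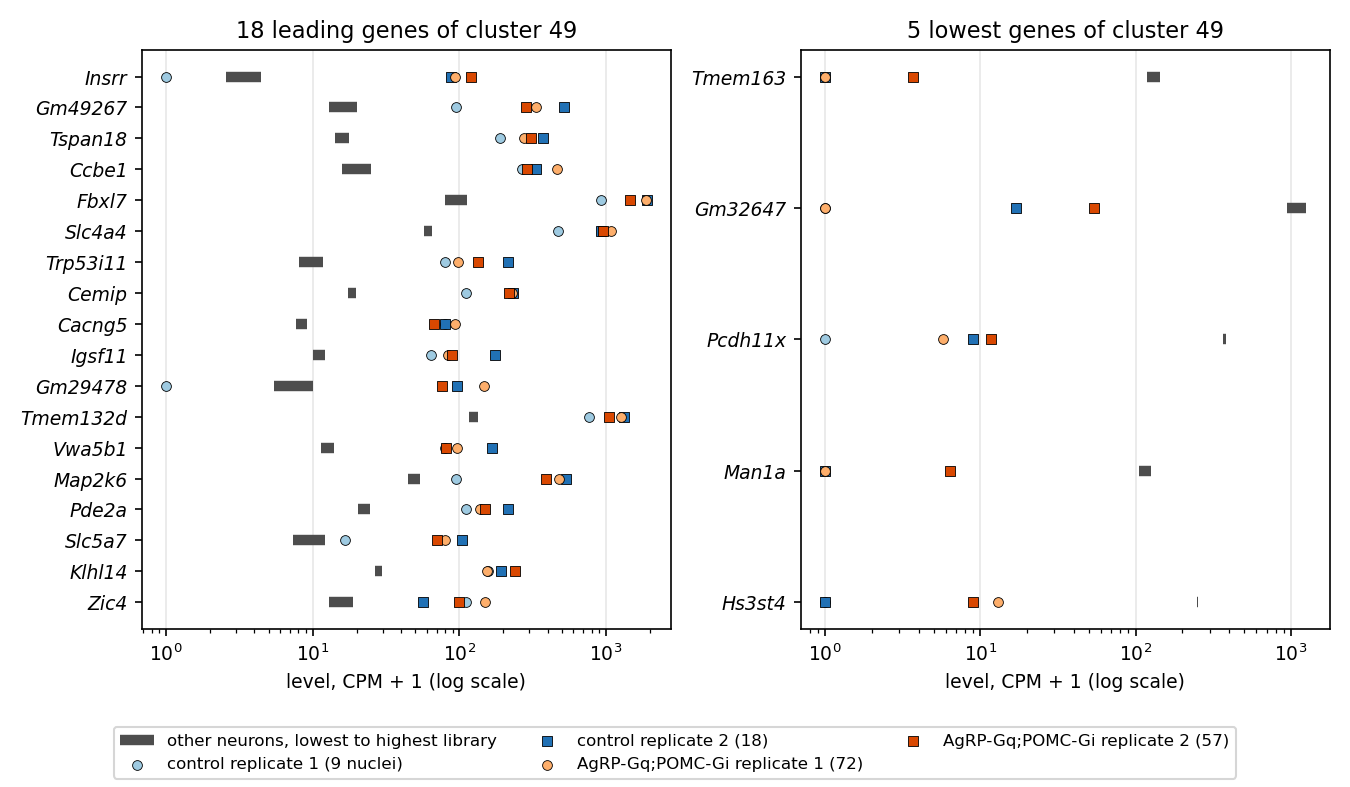
Level of 18 leading genes and of the 5 genes with the lowest ratio in cluster 49, in CPM plus 1 on a log axis, with 1 point per library and a dark bar from the lowest to the highest library of other neurons. The points lie to the right of the bars for the leading genes, apart from single libraries such as control replicate 1 for *Insrr*, and to the left for the 5 lowest genes.

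Transporters, enzymes and intracellular proteins formed another group of leading genes. *Slc4a4*, the electrogenic sodium bicarbonate cotransporter (ENSMUSG00000060961), had 471, 922, 1087 and 955 CPM against 59.5 and was found in 147 nuclei (94.2%) against 25.0% of other neurons. *Fbxl7*, an F-box protein of a ubiquitin ligase (ENSMUSG00000043556), had 927, 1899, 1866 and 1459.7 CPM against 95.1 and was found in 135 nuclei (86.5%) against 24.3%. *Cemip*, which takes part in the breakdown of hyaluronan, had 109.9, 230.5, 229 and 216 CPM against 17.5. These 3 genes were higher in cluster 49 than in any of the other 133 neuronal clusters. *Slc5a7*, the high-affinity choline transporter that supplies acetylcholine synthesis (ENSMUSG00000023945, chromosome 17), had 15.7, 103, 78.6 and 69.4 CPM against 9.06, the 4th highest level of the clusters. The kinase gene *Map2k6*, upstream of p38, had 94.2, 532, 481 and 389.6 CPM against 48.2, and *Pde2a*, a phosphodiesterase of both cyclic nucleotides that is stimulated by cGMP, had 109.9, 215, 138 and 149 CPM against 20.99. *Map2k6* was lowest in control replicate 1, well below the other 3 libraries.

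A transcription factor among the leading genes was *Zic4*, a zinc finger factor of the dorsal neural tube, with 109.9, 55.6, 148 and 98.7 CPM against 15.2. Further leading genes were *Klhl14* (184 against 27.8 CPM), *Vwa5b1* (105 against 11.4 CPM), *Trp53i11* (131 against 8.93 CPM) and the unnamed transcripts *Gm49267* (307 against 15.2 CPM) and *Gm29478* (78.9 against 7.42 CPM). Several leading genes are neighbours in the GRCm38 annotation. *Gm49267* lies on the opposite strand within *Fbxl7*, sharing 34546 bases with it, the 3′ ends of *Trp53i11* and *Tspan18* abut, and *Gm29478* begins 15125 bases from *Zic4*. Counts of such pairs may hold reads of each other where annotations overlap. Of the 20 genes, 11 had their highest level of all neuronal clusters in cluster 49, and each of the 20 had at least 1 other cluster within 2-fold of its level or above it, so none was confined to the cluster. In 18 of 20 every library of cluster 49 exceeded every library of other neurons, the exceptions being *Insrr* and *Gm29478*. The genes were picked by this ratio, so their separation follows from the choice and is a description. The log2 ratios of the 18 reported genes ran from 2.69 for *Zic4* to 4.51 for *Insrr*, the next gene below the limit being *Tmem132a* at 2.62, and they ran from 2.56 to 4.81 when control replicate 1 was left out.

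*Zeb2*, a repressor of the ZEB family with a known preference for the E-box letters CACCTG, was at 738, 866, 932 and 801 CPM in cluster 49 against 139 in other neurons. It was named after its value was seen, and its letters were searched in the RefSeq promoter windows (250 bases before to 50 after a start site, GRCm38.p6) of the leading genes, 12 of which are in the table used. CACCTG or its reverse complement CAGGTG was present in 8 of 24 windows (33.3%) and in 7 of 12 genes, against 20.2% of all 32851 windows and 22.6% of 27025 genes. The leading genes had more windows per gene than the whole table, so the shares of genes are not alike. Largely overlapping windows of *Gm29478*, none with the letters, were counted separately. No enrichment was tested. A match is a description of the letters and not of binding. The windows of *Cemip* and *Slc5a7* are shown because they are leading genes of known function that hold the letters near the far end of the window. The capitals mark CACCTG, whose first base lies 243 and 240 bases before the respective start. Both are read on the minus strand, from chr7:84086456-84086755 and chr17:54298985-54299284.
Cemip: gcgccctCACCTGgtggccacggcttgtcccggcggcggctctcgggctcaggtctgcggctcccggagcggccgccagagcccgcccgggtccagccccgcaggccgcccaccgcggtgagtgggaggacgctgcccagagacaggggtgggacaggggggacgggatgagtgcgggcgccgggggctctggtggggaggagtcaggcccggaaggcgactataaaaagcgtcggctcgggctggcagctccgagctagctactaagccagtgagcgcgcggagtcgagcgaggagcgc
Slc5a7: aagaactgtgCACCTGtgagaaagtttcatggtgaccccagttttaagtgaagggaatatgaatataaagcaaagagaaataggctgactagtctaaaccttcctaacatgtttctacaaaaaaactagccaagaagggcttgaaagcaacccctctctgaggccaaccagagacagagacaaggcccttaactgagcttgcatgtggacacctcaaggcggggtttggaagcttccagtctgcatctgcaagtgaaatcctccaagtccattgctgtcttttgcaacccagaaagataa

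The genes with the lowest ratio, among those detected in 30% or more of other neurons, were nearly undetected in cluster 49. *Tmem163*, a zinc transporter of synaptic vesicles, had 0, 0, 0 and 2.67 CPM against 127 in other neurons, a log2 ratio of -6.26. *Pcdh11x*, a protocadherin encoded on the X chromosome, averaged 5.85 against 374 CPM, *Man1a*, a mannosidase of N-glycan trimming, 1.33 against 114 CPM, and *Hs3st4*, a heparan sulphate sulphotransferase, 4.98 against 250.0 CPM. The unnamed transcript *Gm32647* had 0, 15.9, 0 and 53.4 CPM against 1094. *Tmem163* and *Man1a* had a UMI in 0.641% of the nuclei, that is 1 nucleus, against 37.0% and 37.2% of other neurons.

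The genes of GABA synthesis were above other neurons, and the glycine carrier was found in part of the nuclei. Genes were counted in this and the following lists if the mean of their levels in cluster 49 and in other neurons was at least 10 CPM. Genes named under this level are not in the counts. Over all 10214 such genes 5.23% had a log2 ratio above 1 and 7.84% a ratio below -1, with a median of 0.03. These shares and the counts of the lists were not taken for any other cluster. Of 10 transmitter genes 3 were above 1 (*Slc5a7*, *Gad1* and *Gad2*) and 1 was below -1 (*Slc17a6*). *Gad2* had 267, 349.7, 326 and 221 CPM against 93.9, and *Gad1* had 141, 207, 174 and 147 CPM against 49.8. *Slc32a1* had 15.7, 47.7, 50.04 and 48.0 CPM against 27.0. The glycine carrier *Slc6a5* had 157, 71.5, 90.5 and 115 CPM against 83.1, with control replicate 1 above the other libraries. The vesicular glutamate carrier *Slc17a6* had 15.7, 7.95, 9.53 and 16.0 CPM against 76.4, and *Slc17a7* and *Slc17a8* averaged 0.596 and 0.667 against 6.88 and 2.83. By nuclei, 135 of 156 (86.5%, 80.2 to 91.5) held *Gad1* or *Gad2*, 68 (43.6%, 35.7 to 51.8) held *Slc6a5*, 64 held both kinds and 7 held *Slc17a6*.

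Most genes of amine synthesis and reuptake were not found. *Chat*, which makes acetylcholine, had 0, 7.95, 16.7 and 2.67 CPM against 5.198, and *Slc18a3*, which loads acetylcholine into vesicles, was in 1 nucleus. *Th*, *Tph2*, *Slc6a4*, *Slc6a2*, *Pnmt* and *Hdc*, genes of the synthesis and reuptake of amines, were each in 0 of 156 nuclei, which allows a share of up to 1.92% with a UMI. *Ddc*, *Dbh* and *Slc18a2* averaged 3.97 against 13.7 CPM, 1.26 against 1.36 CPM and 12.2 against 23.1 CPM. *Slc6a9*, the glial-type glycine carrier, averaged 22.7 against 13.7 CPM, and *Nos1*, which makes nitric oxide, 17.2 against 20.8 CPM.

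Among neuropeptides 0 of 8 were above 1 and 2 were below -1, or 1 and 1 of 8 without control replicate 1. *Sst* averaged 54.4 against 30.0 CPM, *Penk* 35.6 against 42.9 CPM and *Nppc* 19.6 against 14.2 CPM, while *Tac1*, the substance P precursor, averaged 4.44 against 17.98 CPM. *Agrp* was at 94.2, 55.6, 71.5 and 88.1 CPM against 88.1 in other neurons, but its annotated interval spans other genes, so these UMIs were not read as *Agrp* expression.

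Peptide and amine receptors separated the cluster from other neurons in both directions. Of 7 peptide receptors 2 were above 1, *Npy2r* and *Gipr*, and 1 was below -1. *Gipr*, the receptor of the gut hormone glucose-dependent insulinotropic polypeptide, had 0, 79.5, 33.4 and 48.0 CPM against 2.03, its highest level of the 134 clusters. A *Gipr* UMI was in 24 nuclei (15.4%) against 1.66% of other neurons and 4.04% of oligodendrocytes, and in none of the 9 nuclei of control replicate 1. *Npy2r*, an inhibitory receptor of neuropeptide Y and peptide YY, had 31.4, 55.6, 21.4 and 32.0 CPM against 3.27, and the opioid receptor *Oprm1* averaged 171 against 105 CPM. The insulin receptor *Insr* averaged 122 against 124 CPM, and *Crhr1*, a receptor of corticotropin-releasing hormone, 0 against 16.5 CPM. The leptin receptor *Lepr*, named after its value was seen, averaged 0.596 against 17.9 CPM. *Crhr1* and *Lepr* were under the level limit and are not among the 7.

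Of 10 amine receptors 1 was above 1 and 7 were below -1, or 6 of 10 without control replicate 1. *Drd2*, the dopamine D2 receptor, was the one above, with 15.7, 151, 59.6 and 40.0 CPM against 10.6, the highest value in control replicate 2. The serotonin receptor *Htr2c* had 94.2, 0, 7.15 and 18.7 CPM against 740.3 and averaged 8.61 CPM without control replicate 1. *Htr4* averaged 4.59 against 62.2 CPM and the histamine receptor *Hrh2* 0 against 12.6 CPM. The muscarinic receptor *Chrm3* averaged 636 against 351 CPM.

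Ionotropic and metabotropic receptors of the fast transmitters were more often below than above other neurons. Of 17 GABA and glycine receptor genes 0 were above 1 and 6 were below -1. *Glra1*, the adult glycine receptor subunit, had 126, 15.9, 42.9 and 16.0 CPM against 231 and averaged 24.9 CPM without control replicate 1, the library in which it was highest. *Glra3* averaged 13.1 against 112 CPM, *Gabrg1* 1.19 against 31.3 CPM, *Gabrg3* 1103 against 798 CPM and the GABA-B subunit *Gabbr2* 344 against 226 CPM. Of 21 glutamate receptor genes 3 were above 1 and 6 below -1. The AMPA subunit *Gria1* had 895, 842, 1234 and 1174 CPM against 389, whereas *Gria3* had 141, 7.95, 81.0 and 72.1 CPM against 465. The NMDA subunit *Grin3a* averaged 662 against 247 CPM and *Grm8*, a presynaptic metabotropic receptor, 87.7 against 494 CPM.

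**Figure D2:**
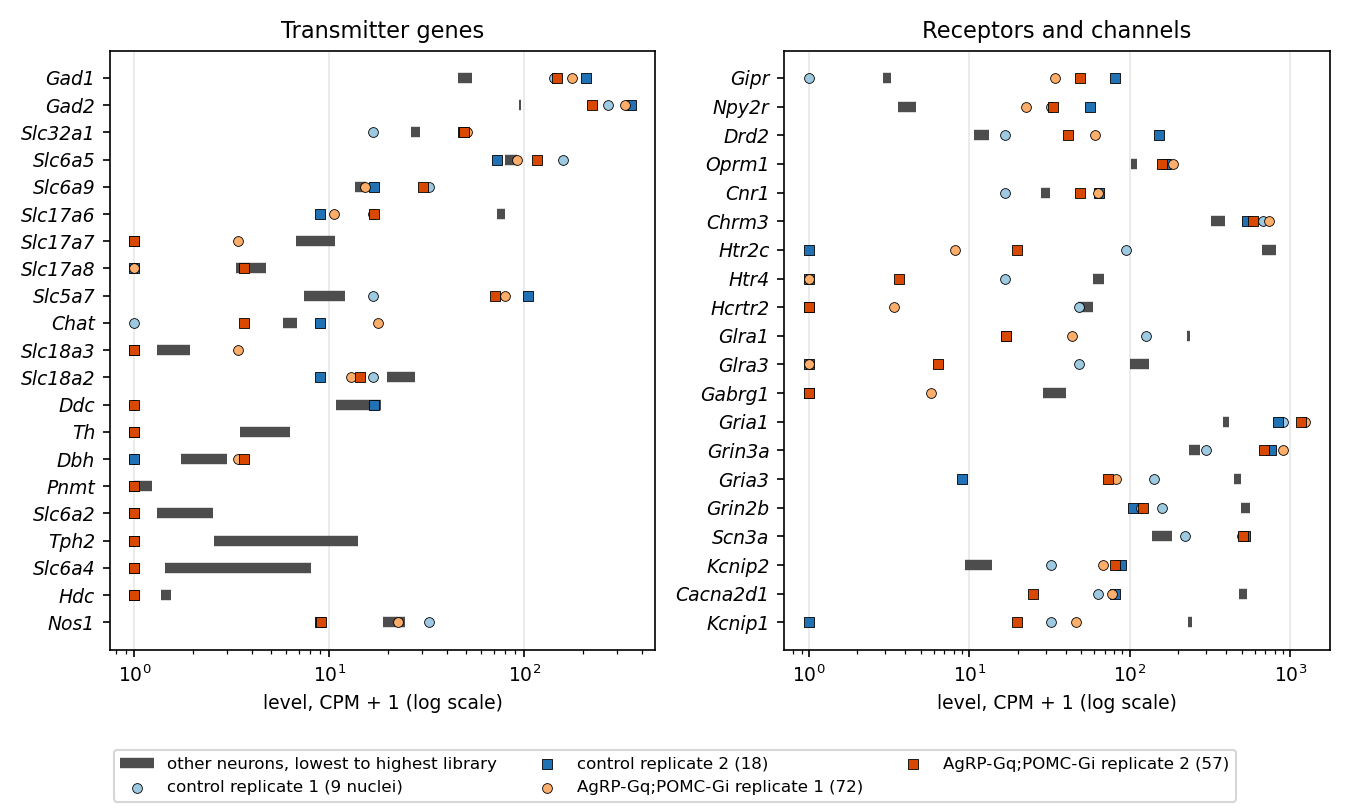
Levels in cluster 49 of 21 transmitter genes and of 20 receptor and channel genes that were picked after their values were seen, in CPM plus 1 on a log axis, with 1 point per library and a dark bar from the lowest to the highest library of other neurons. *Gad1* and *Gad2* lie to the right of their bars and *Slc17a6* to the left, and *Gipr*, *Npy2r*, *Drd2* and *Kcnip2* lie to the right of theirs except where a library had no UMI.

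Ion channel genes were also mixed in direction. Of 39 potassium channel genes 6 were above 1 and 10 below -1. *Kcnip2*, a subunit of A-type channels of the Kv4 family, had 31.4, 87.4, 66.7 and 80.1 CPM against 10.7, its highest level of the clusters, whereas its relative *Kcnip1* had 31.4, 0, 45.3 and 18.7 CPM against 236. The leak channel gene *Kcnk2* averaged 217 against 87.5 CPM, *Kcnh8* 4.91 against 72.9 CPM and *Kcnip4* 4842 against 4123 CPM. Of 33 genes of sodium, calcium and other cation channels 5 were above 1 and 6 below -1. The sodium channel *Scn3a* averaged 438 against 161 CPM and the calcium channel subunit *Cacna2d1* 60.6 against 509.7 CPM.

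The transcription factors of the cluster included *Pax2* and its relatives, while the *Ebf* genes were below other neurons. Of 42 lineage factors 10 were above 1 and 15 below -1, or 17 without control replicate 1. *Pax5*, a relative of *Pax2*, had 0, 95.4, 81.0 and 88.1 CPM against 2.20, was in 33 nuclei and had its highest level of the clusters here. *Meis2*, a cofactor of Hox proteins, had 581, 1351, 1301 and 1113 CPM against 347, and its partner *Pbx3* averaged 897 against 312 CPM. *Ebf2* was at 0 in all 4 libraries against 70.2, *Foxp2* averaged 0.667 against 72.1 CPM and *Ebf3* 3.77 against 97.6 CPM. The following members were named after their values were seen. *Pax2* had 109.9, 151, 117 and 147 CPM against 59.8, *Pax8* averaged 33.3 against 24.4 CPM, and *Skor2* and *Tfap2a*, factors known from GABAergic neurons of the dorsal brainstem and cerebellum and from the dorsal neural tube, averaged 26.1 against 4.21 CPM and 41.2 against 6.09 CPM. *Zic1* and *Zic2* averaged 108 against 22.1 CPM and 19.8 against 1.29 CPM.

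Hox genes, which mark position along the hindbrain and spinal cord, were mostly above other neurons. Of 10 Hox genes at 10 CPM or more 8 were above 1 and 0 below -1, with a median log2 ratio of 1.31, and the counts were the same without control replicate 1. *Hoxb5* had 62.8, 175, 59.6 and 120.1 CPM against 17.9, and *Hoxa5* had 31.4, 71.5, 35.7 and 64.0 CPM against 12.7. *Hoxb4* averaged 79.9 against 26.6 CPM and *Hoxb3* 126 against 48.98 CPM. The 2 genes not past the limit were *Hoxb2* and *Hoxd4*, with log2 ratios of 0.31 and 0.40. Neighbouring Hox genes overlap in the annotation in places, so their UMIs may not be wholly separate.

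**Figure D3:**
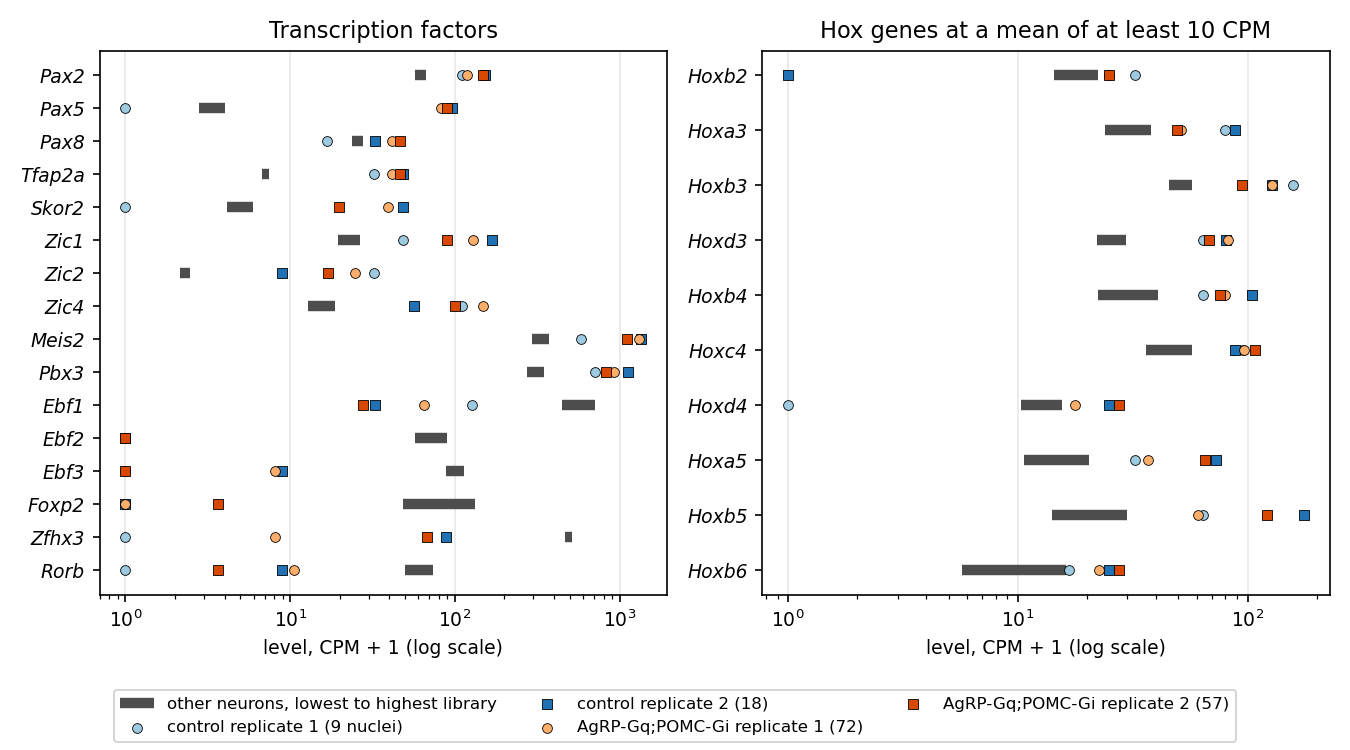
Levels in cluster 49 of 16 transcription factors picked after their values were seen and of the 10 Hox genes at 10 CPM or more, in CPM plus 1 on a log axis, with 1 point per library and a dark bar from the lowest to the highest library of other neurons. *Pax5* lies to the right of its bar in 3 libraries and had no UMI in control replicate 1, and *Ebf2* and *Foxp2* lie at or near 0.

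Genes related to the 2 name genes were described from lists that are not limited to direct partners of their products. Of 6 genes of the list made for *Ccbe1*, which includes other VEGF genes, 2 were above 1 and 3 below -1. The VEGF co-receptor *Nrp2* had 236, 262, 317 and 318 CPM against 87.8, and *Vegfa* had 157, 143, 119 and 227 CPM against 46.8, its highest level of the clusters. *Vegfc*, the growth factor whose processing *Ccbe1* assists, averaged 0.667 against 17.1 CPM, and of the proteases of this family *Adamts2* was at 0 against 26.1 and *Adamts3*, named after its value was seen, averaged 12.3 against 48.5 CPM. *Nrp1* averaged 13.6 against 76.3 CPM. Of 16 genes of tetraspanins and store-operated calcium entry 2 were above 1, *Tspan18* itself and *Cd63* (42.8 against 13.8 CPM), and 0 were below -1, while *Tspan5* averaged 212 against 126 CPM.

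Genes of synaptic adhesion, cadherins, guidance and matrix were below other neurons more often than above. The counts were 5 above and 13 below of 47 synaptic organizers, 2 and 12 of 23 cadherins, 7 and 14 of 37 guidance genes, and 1 and 11 of 25 matrix genes, and the numbers below became 17, 13, 14 and 15 without control replicate 1. *Ptprt*, a receptor phosphatase of cell adhesion, had 1790.4, 4077, 3381 and 2903 CPM against 669.9, and *Cntn5*, a contactin, had 6047, 2917, 5657 and 4852 CPM against 1219. *Nrxn3* averaged 11229 against 4295 CPM and *Dscam* 107 against 882 CPM. The ephrin *Efna5* had 1115, 1534, 1692 and 1419.7 CPM against 268, its highest level of the clusters, while the ephrin receptor *Epha7* averaged 3.34 against 133 CPM and the repellent *Sema3a* 1.26 against 78.8 CPM. *Pcdh17* and *Pcdh19* averaged 544 against 166 CPM and 172 against 60.7 CPM, and *Cdh8* 16.6 against 302 CPM. The matrix protein *Spon1* averaged 377 against 73.5 CPM, and *Col19a1* was at 0 against 49.6. Of 14 calcium-binding genes 3 were above 1 and 4 below -1, with *Hpcal1*, a neuronal calcium sensor, at 139 against 29.2 CPM and *Calb1* at 4.59 against 25.0 CPM.

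Single nuclei varied in how many leading genes they held. A nucleus had a UMI of a median of 11 of the 20, with a range from 1 to 19, and 8 nuclei had fewer than 5. The median in other neurons was 2, but the genes were picked in these same nuclei, so this difference follows from the choice. The medians by library were 8, 14, 11 and 12. *Rbfox3* was found in 43 nuclei (27.6%) against 76.1% of other neurons, and in nuclei thinned to 2000 UMIs it was found in 16.0% against 37.4%, leaving out 6 and 160 shallower nuclei. The neuronal markers *Snap25* and *Syt1* were in 94.2% and 98.1% of nuclei against 96.3% and 90.0%, and the summed level of the 5 neuronal markers was 4052 to 5080 CPM against 2904 to 2967 in other neurons. *Rbfox3* was thus low in nuclei that held the other neuronal markers.

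The clusters most like cluster 49, by Pearson's r over the log2 levels of the 2000 most variable genes across the 134 clusters, were cluster 92 (107 nuclei, r = 0.782), cluster 58 (*Adarb2*/*Lama1*, 147 nuclei, r = 0.742) and cluster 142 (*Cpne4*/*Trhde*, 60 nuclei, r = 0.719). These coefficients are descriptions across genes, which are not independent and share their libraries. The same 3 clusters led with 1000 or 3000 genes and with Spearman's rho. Leaving out control replicate 2 brought cluster 41 in place of cluster 142, and leaving out AgRP-Gq;POMC-Gi replicate 1 brought cluster 64 in its place. Cluster 92 shared *Ccbe1*, *Tspan18* and *Zic4* at 399, 175 and 97.0 CPM. Cluster 142 shared *Ccbe1*, *Zic4* and *Gm29478* at 170, 127 and 79.6 CPM. *Map2k6* was 374 CPM in cluster 49 against 209, 234 and 196 in clusters 92, 58 and 142. Other leading genes differed more, with *Fbxl7* at 1538 CPM against 161, 195 and 29.3 in the same order. *Tmem132d* was 1101 CPM against 225, 74.9 and 27.5. *Slc5a7* was 66.8 CPM against 0, 0.713 and 9.77. No test was made of these differences, since the genes helped to form the clusters.

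The share of cluster 49 among neurons was larger in both AgRP-Gq;POMC-Gi libraries than in both control libraries, but did not pass the test across clusters. It was 0.364% (exact 95% interval 0.167 to 0.691) and 0.658% (0.390 to 1.04) of the neurons in control replicates 1 and 2, and 1.95% (1.53 to 2.45) and 1.57% (1.19 to 2.03) in AgRP-Gq;POMC-Gi replicates 1 and 2. The intervals of the groups do not overlap, but they cover counting error only. The group means were 0.511 ± 0.208% and 1.76 ± 0.269% (SD, n = 2), a fitted fold of 3.40 (log2 1.77 ± 0.50, SE) with an adjusted p of 0.421 in edgeR's quasi-likelihood test over the 134 clusters. At an unadjusted p of 0.00696 it had the smallest p of all clusters, and it was the 3rd highest fold after clusters 154 (4.57) and 159 (3.68), of which the libraries gave 3, 4, 25 and 21 and 3, 5, 18 and 24 nuclei. No cluster was called (0% of 134), and 8 (5.97%) had an unadjusted p under 0.05. In 33 clusters (24.6%) both AgRP-Gq;POMC-Gi shares lay above both control shares. An exact two-sided permutation test over the 4 libraries gave p = 0.333, the smallest it can give.

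The denominator and single libraries moved this value. Neurons made up more of all nuclei in the AgRP-Gq;POMC-Gi libraries, with 3696 and 3637 neurons against 2470 and 2736, and as a share of all nuclei the cluster was 0.0925, 0.179, 0.741 and 0.572%, a fold of 4.79 (edgeR adjusted p = 0.317). The fold among neurons was 3.76 when AgRP-Gq;POMC-Gi replicate 2 was left out (adjusted p = 0.0349) and 2.66 when control replicate 1 was left out (adjusted p = 0.978).

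**Figure D4:**
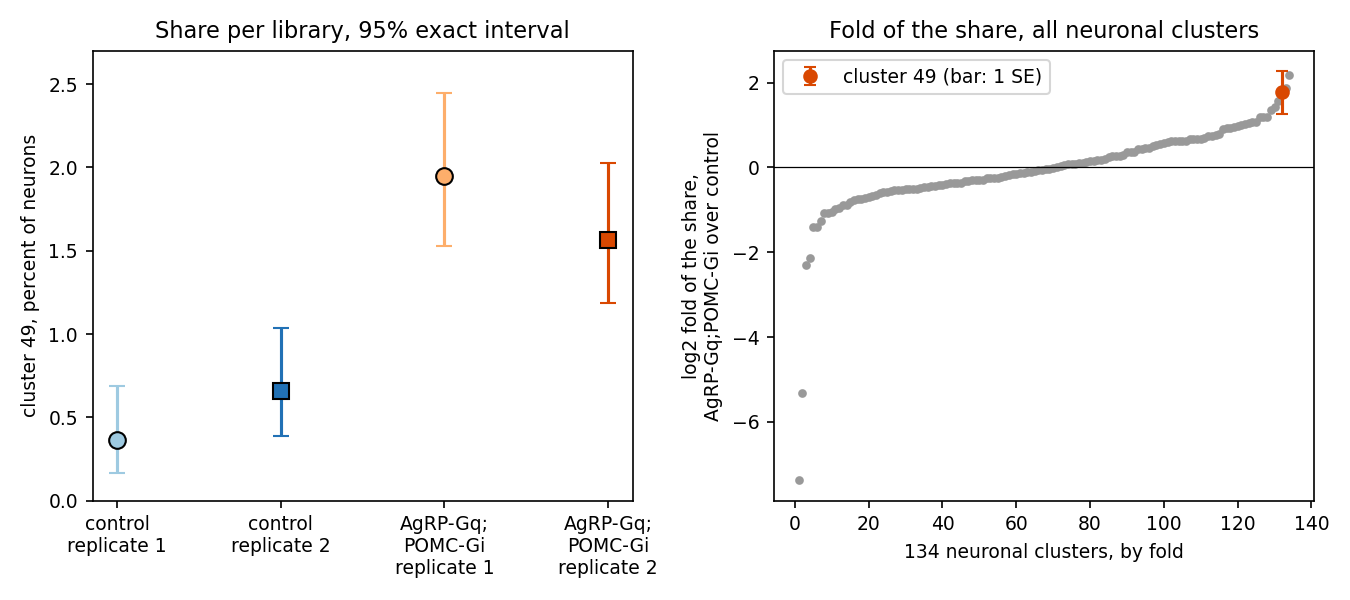
Left, share of neurons that belonged to cluster 49 in each library, in percent with exact 95% intervals, and right, log2 fold of the share between the groups for the 134 neuronal clusters, with cluster 49 in orange with 1 SE. The 2 AgRP-Gq;POMC-Gi libraries at 1.95% and 1.57% lie above the control libraries at 0.364% and 0.658%, and other clusters reach folds as large.

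Within cluster 49 no gene was called between the groups in the main fit. With the replicate number as a block, which the labels do not give as pairs, 3 were called (*Kcnmb2*, *Tmem132c* and *Skap1*). Of the 10361 genes detected in 5% or more of the nuclei, edgeR called 0 (0%) at an adjusted p under 0.05 and gave 452 (4.36%) an unadjusted p under 0.05, of which 267 were higher in AgRP-Gq;POMC-Gi. Without TMM factors 501 had an unadjusted p under 0.05 and 190 of them were higher, so the direction of the larger part turned with the scaling. DESeq2 also called 0 and had 62 at an unadjusted p under 0.05. The median log2 fold of all genes was 0.08 with TMM factors and -0.06 without, so the scale itself moved by more than 0.1. The lowest adjusted p was 0.967, which the 10 genes of smallest p shared, and none of the 20 leading genes was called. In the lists of transmitters, Hox genes, amine receptors and peptide receptors 0 of 10, 0 of 11, 0 of 8 and 0 of 7 tested genes had an unadjusted p under 0.05. Tetraspanins and their partners had 3 of 18, calcium-binding genes 2 of 11, cadherins 2 of 19, synaptic organizers 3 of 46 and lineage factors 1 of 35, against 4.36% over all genes, and none of these was called.

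The genes of smallest p that were higher in AgRP-Gq;POMC-Gi, none of them past the threshold in the main fit, were *Kcnmb2*, *Tmem132c*, *Skap1*, *Tnrc18*, *Flrt3* and *Dner*. *Kcnmb2*, an auxiliary subunit of BK potassium channels, had 15.7, 23.8, 148 and 235 CPM from 1, 3, 62 and 88 UMIs in 1, 3, 16 and 14 nuclei (log2 fold 3.27 ± 0.53, SE). *Skap1*, an adaptor protein of T cell adhesion, had 47.1, 95.4, 298 and 339 CPM from 3, 12, 125 and 127 UMIs (2.16 ± 0.38). *Tmem132c*, a membrane protein related to *Tmem132d*, had 0, 0, 97.7 and 98.7 CPM from 0, 0, 41 and 37 UMIs in 0, 0, 15 and 16 nuclei. The control libraries lay below the AgRP-Gq;POMC-Gi libraries in each of these genes, which follows from their choice by small p. For *Tmem132c* 0 of 27 control nuclei allow a share of up to 11.1% with a UMI. Single nuclei held up to 22 UMIs of *Kcnmb2*, 23 of *Skap1* and 14 of *Tmem132c*, so the UMIs of each gene were not independent, and no fold is given for *Tmem132c* because its control libraries were at 0. *Tnrc18* had 47.1, 71.5, 181 and 195 CPM, *Flrt3*, an adhesion protein, 31.4, 23.8, 92.9 and 131, and *Dner*, a Notch ligand, 141, 127, 274 and 376.

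Others of the 10 were lower in AgRP-Gq;POMC-Gi. *Tuba1a*, a tubulin, had 377, 342, 122 and 133 CPM (log2 fold -1.33), and *Naca*, a chaperone of nascent chains, had 157, 183, 47.7 and 50.7 CPM (-1.66). *Fth1*, the ferritin heavy chain, had 377, 445, 141 and 173 CPM (-1.26). The groups did not overlap in any of these genes, which follows from their choice by small p. Of the 5 oligodendrocyte markers 4 had an unadjusted p under 0.05 and a lower level in AgRP-Gq;POMC-Gi, and the marker sum was also lower in other neurons of these libraries as given above. In other neurons *Tuba1a* had 96.3, 107, 62.8 and 91.7 CPM and *Fth1* had 199, 201, 102 and 175 CPM, so both were also lower in the AgRP-Gq;POMC-Gi libraries there. *Naca* had 53.6, 57.1, 38.5 and 54.1 CPM in other neurons, where the groups overlapped.

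**Figure D5:**
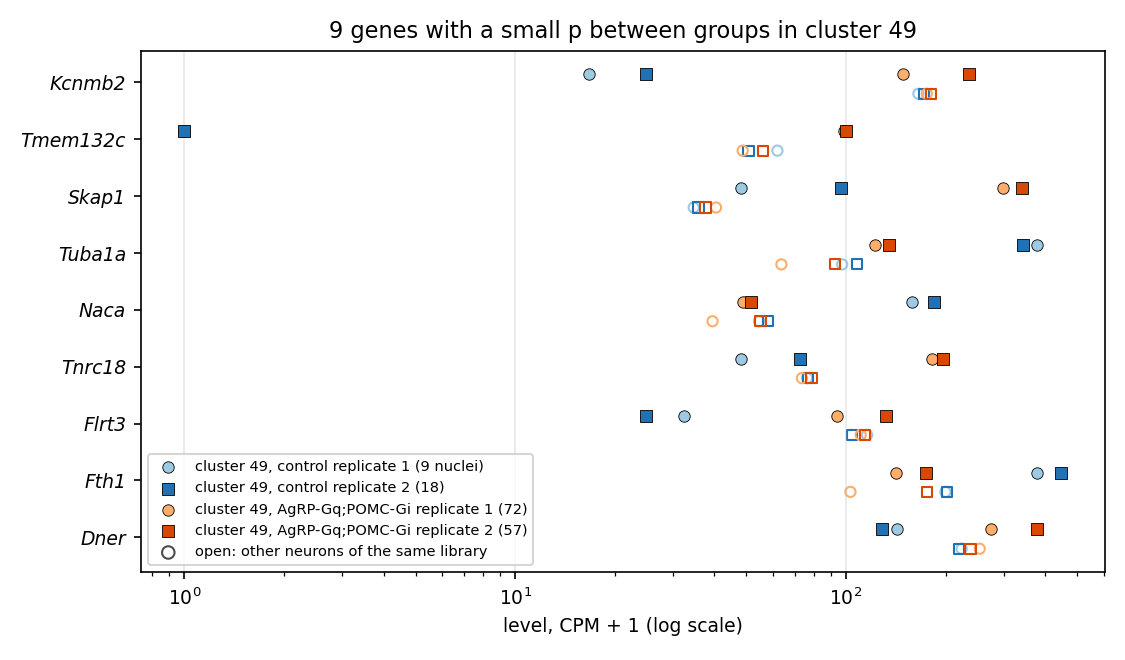
Level in CPM plus 1, on a log axis, of 9 of the 10 genes of smallest p between the groups, with filled points for cluster 49 and open points for other neurons of the same library. *Kcnmb2*, *Tmem132c* and *Skap1* are higher in the filled AgRP-Gq;POMC-Gi points than in the filled control points, while the open points of these genes lie close together.

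Whether the group effect in cluster 49 differed from that in all other neurons was tested by an interaction in one edgeR fit of 8 sums, 2 from each library, with the library as a term. Of 10361 genes 2 (0.0193%) were called, *Kcnmb2* and *Tmem132c*, both with an adjusted p of 0.0386, and 455 (4.39%) had an unadjusted p under 0.05. *Tmem132c* passed the detection minimum through the AgRP-Gq;POMC-Gi nuclei alone, so the filter favoured the direction of its difference and its call is given as a description. *Kcnmb2* differed by 3.19 ± 0.58 on the log2 scale, and in other neurons it ran from 164 to 180 CPM. *Tmem132c* ran from 47.7 to 61.0 CPM in other neurons, and its fitted difference has no meaning as a size because the control libraries of the cluster were at 0. *Skap1*, at 33.6 to 39.4 CPM in other neurons, differed by 1.98 ± 0.39 (adjusted p = 0.0765) and was not called. With the replicate block *Skap1* was called (2.06, edgeR adjusted p = 0.0465). With each library left out, which leaves 1 library in its group, the difference of *Skap1* ran from 1.69 to 2.73. Whether it was called then turned on the library left out. *Kcnmb2* and *Tmem132c* stayed called without TMM factors (edgeR adjusted p = 0.0343 for both) and with the replicate block (0.00287 for both). With detection required in at least 10% of nuclei neither was called (adjusted p = 0.185 for both), at a *Kcnmb2* difference of 3.14. Neither was called when either AgRP-Gq;POMC-Gi replicate was left out, which leaves 1 library in that group. The *Kcnmb2* difference was then 3.45 without replicate 1 and 2.92 without replicate 2.

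These 3 genes were found together in part of the nuclei, which were grouped here by values already seen and are therefore described without a test. Of the 129 AgRP-Gq;POMC-Gi nuclei, 67 had a UMI of none of them, 31 of 1, 16 of 2 and 15 of all 3, and of the 27 control nuclei 18, 7, 2 and 0. The 31 nuclei with 2 or 3 had a median of 6558 UMIs and 14 leading genes, and the 67 with none had 5109 UMIs and 11. *Pax5* was in 35.5% and 19.4% of these nuclei and in 11.1% of the control nuclei, and *Drd2* was in 16.1%, 26.9% and 40.7%. *Npy2r* was in 0%, 20.9% and 33.3% in the same order. These genes were picked after their values were seen. Others were more alike, with *Ccbe1* in 77.4%, 70.1% and 77.8%, *Gad2* in 71.0%, 68.7% and 70.4%, and *Slc6a5* in 45.2%, 44.8% and 48.1%.

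Immediate early genes (IEGs), which neurons transcribe within minutes of strong activity, gave few UMIs in cluster 49. Of the 10 IEGs named in the Methods 4 had a UMI in at least 5% of nuclei, and 0 were called. The nuclei of the cluster held 189498 UMIs of all genes in the controls and 794387 in AgRP-Gq;POMC-Gi. A count of 0 in the controls thus does not show a lower level. *Fos* had 0, 0, 4 and 2 UMIs in all, *Nr4a1* 0, 0, 0 and 4, *Nr4a3* 0, 0, 2 and 0, *Gem* 0, 0, 2 and 2, *Jun* 1, 1, 5 and 1, and *Fosl2* none. *Homer1*, a scaffold protein with an activity-induced short form, had 1, 4, 30 and 15 UMIs in 1, 3, 26 and 12 nuclei, with a log2 fold of 1.24 ± 0.70 (edgeR adjusted p = 0.967) that moved to 2.03 when control replicate 2 was left out and to 0.67 when AgRP-Gq;POMC-Gi replicate 1 was left out. *Junb* differed by -0.12 ± 1.01 (edgeR adjusted p = 0.995), *Btg1* by -0.21 ± 0.49 (0.986) and *1700016P03Rik* by 0.24 ± 1.13 (0.995). The sign of each of these turned when a library was left out, with a range from -0.38 to 4.77 for *1700016P03Rik*. With nuclei as units and the library as random effect, a mixed model for counts gave unadjusted p of 0.126, 0.872, 0.579 and 0.918 for these 4 genes in the same order. These values do not show that the groups were alike in their IEGs.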

How the data were processed

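UMI counts of single nuclei from 4 libraries were used. The authors mapped reads to GRCm38 and deposited raw UMI counts made with Cell Ranger 7.0.0, kept nuclei with 800 or more UMIs, 500 or more genes and no more than 10% mitochondrial RNA, removed doublets, and clustered with scVI and Louvain (Seurat 4.3.0 is also named). Clusters and cell types come from their deposited annotation, whose activity score was not used here.

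Members and gene lists were chosen with earlier results of these data known. UMIs were summed per library. Groups were compared with edgeR 4.0.16 in R 4.3.3 (quasi-likelihood test, TMM factors, Benjamini-Hochberg adjustment over all genes or clusters), on genes detected in 5% or more of the nuclei. Alternatives were DESeq2 1.42.0, no TMM factors, other filters, the replicate number as a block, each library left out, a mixed model in glmmTMB 1.1.9 and, for levels, other weightings. Counts over lists without control replicate 1 were added after seeing the data. Counts were simulated at the depth of cluster 49, with a fixed spread between libraries that was not estimated from the data. On these, edgeR recovered 0.5% of 200 genes changed 2-fold and 10.0% of 200 changed 4-fold among 10361, with 0 and 1 false calls. In that setting most changes of this size would be missed.

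Named were the name genes, the 20 highest and 5 lowest ratios, up to 5 members of each list by level or ratio, every transmitter gene, the IEGs and the 10 smallest p, with exceptions said in place. Some of these genes are not reported here. Promoter windows are those of RefSeq and positions those of GENCODE M21. Python 3.11.15 (pandas 2.3.3, numpy 2.4.6, scipy 1.17.1, matplotlib 3.10.9) was used for tables and plots. No barcode was shared between libraries within cluster 49. Exact intervals cover counting error only.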

Additional observations from a re-analysis of the deposited data

Results flagged for a closer look

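*Kcnmb2* and *Tmem132c* passed the threshold for a difference between the effect of the group in cluster 49 and that in all other neurons, by the interaction term of edgeR's quasi-likelihood test (adjusted p = 0.0386 for each, over 10361 genes). Both were higher in 2 of 2 AgRP-Gq;POMC-Gi libraries than in 2 of 2 control libraries of the cluster, which follows from their choice by this difference. In other neurons *Kcnmb2* ran from 164 to 180 CPM and *Tmem132c* from 47.7 to 61.0 CPM over all 4 libraries. In the cluster the control values rest on 1 and 3 UMIs of *Kcnmb2* and on 0 and 0 UMIs of *Tmem132c* in 9 and 18 nuclei. *Tmem132c* passed the detection minimum of 5% of nuclei through AgRP-Gq;POMC-Gi nuclei alone, so its call is a description and no independent test of its direction. Neither gene was called by edgeR with a UMI in at least 10% of nuclei (adjusted p = 0.185 for both). Neither was called without either AgRP-Gq;POMC-Gi replicate, which leaves 1 library in that group. Both were called without TMM factors (0.0343 for both) and with the replicate block (0.00287 for both). The log2 difference of *Kcnmb2* was 3.19 in the main fit, 3.14 at the 10% minimum and 2.92 to 3.63 with each library left out.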

How the results depend on the processing

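Between the groups in cluster 49, edgeR called 0 genes with TMM factors, without them, without a filter on genes, with filterByExpr and with a UMI in at least 10% of nuclei, as did DESeq2. With the replicate block, which pairs libraries by number, it called 3 (*Kcnmb2*, *Tmem132c* and *Skap1*), and leaving out each library in turn gave 0 to 4, with *Kcnmb2*, *Tmem132c*, *Xist* and *Tsix* called without AgRP-Gq;POMC-Gi replicate 1 and *Tmem132c* and *Ttr* without AgRP-Gq;POMC-Gi replicate 2. The difference of the group effect from other neurons gave 2 calls, 0 with a UMI in at least 10% of nuclei, 4 with the replicate block (also *Stard13* and *Skap1*), and 0 to 66 with each library left out (28 without control replicate 1, 66 without control replicate 2 and 0 without either AgRP-Gq;POMC-Gi replicate). The fold of the share ran from 2.66 to 4.78 with each library left out, was 3.48 with the replicate block (adjusted p = 0.793), and passed the test only without AgRP-Gq;POMC-Gi replicate 2 (3.76, adjusted p = 0.0349). Same-numbered libraries deviated from their group means with a correlation of -0.01 in cluster 49 and 0.43 in other neurons. *Ttr* in cluster 49 was at 62.8 and 14.3 CPM in the libraries numbered 1 and at 1264 and 891 CPM in those numbered 2. With 2 pairs and no shared batch in the labels the numbers were not taken as pairs. Whether they stand for a batch was not tested. The log2 fold of *Homer1* ran from 0.67 to 2.03. The sign of 3 IEG folds turned when a library was left out, so that the log2 fold ran from -0.59 to 0.24 for *Junb*, from -0.58 to 0.060 for *Btg1* and from -0.38 to 4.77 for *1700016P03Rik*, none of them called. The direction held in 25 of 25 leading and lowest genes under each alternative weighting and each library left out. These genes were picked for the most extreme ratios, so a turn of sign could hardly occur. With a library left out its group had 1 library, so the other group alone gave the spread. The cause of these changes was not tested.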
